A study of Mus musculus with 8 samples.

Results

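The 7 genes Mertk, Axl, Tyro3, Gas6, Pros1, Mfge8 and Timd4 encode receptors and bridging proteins of apoptotic cell uptake. They were chosen by name, and all 7 were found among the 23354 gene symbols measured in each library. Messenger RNA was measured by sequencing of 8 libraries of mouse bone marrow-derived macrophages, as FPKM (a fragment count scaled to transcript length and library size). Every animal was 8 weeks old, was labelled C57BL/6J and carried a floxed Ern1 gene, which encodes the endoplasmic reticulum stress sensor IRE1α. In the Ern1f/f groups the gene was floxed only. In the Ern1f/fLyz2-Cre groups Cre recombinase was driven by the Lyz2 locus, which is active in macrophages, neutrophils and other myeloid cells. Bone marrow was grown for 7 days in medium from L929 fibroblast-like cells, a source of macrophage growth factor. Cells were then left untreated (control) or given IL-4 at 20 ng/ml for 24 hours. IL-4 is the cytokine that induces alternative activation. Each of the 4 groups held 2 libraries, numbered 1 and 2. The 4 libraries numbered 1 are called set 1 and those numbered 2 set 2. The labels do not say what the number marks, nor whether libraries came from separate animals or cultures, so p-values measure only the spread between these libraries.

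Macrophages clear dying cells by recognising phosphatidylserine, a lipid that apoptotic cells expose on their surface. Tyro3, Axl and Mertk, the TAM receptor tyrosine kinases, do not bind the lipid themselves. They bind Gas6 or protein S (the product of Pros1), secreted proteins whose vitamin K-dependent carboxylated domain attaches to phosphatidylserine. Gas6 activates each of the TAM receptors, while protein S acts on Mertk and Tyro3. Mfge8 is a secreted bridge between phosphatidylserine and the integrins αvβ3 and αvβ5. Timd4 (TIM-4) is a receptor that binds phosphatidylserine directly, and it is best known on resident tissue macrophages such as those of the peritoneum.

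The libraries differed by set more than by treatment or genotype. The first principal component of the log values held 59.0% of the variance and parted the sets. Over genes, the difference between replicates in one group correlated with that in each other group (r from 0.69 to 0.83, 6 pairs of groups). The depth implied by the authors' confidence intervals was 21500000 to 37900000 fragments per library, which is 919 to 64048 fragments per library for Mertk, Axl, Gas6, Pros1 and Mfge8. Ern1 itself was measured at 9.11 to 11.5 FPKM in the Ern1f/f libraries and at 7.43 to 14.3 FPKM in the Ern1f/fLyz2-Cre libraries. These ranges overlapped. A gene-level value covers the whole transcript, and the deleted part is not given, so it is no check of the genotype. In 4 libraries the title and the genotype field of the labels contradict each other, and groups here follow the titles. The field follows the replicate number, so under it each difference between sets reported below would also be a difference between genotypes. Lyz2 was lower in the library titled Ern1f/fLyz2-Cre in all 4 comparisons within a set and treatment: 10949 against 18114 and 5780 against 8901 FPKM in set 1, control and IL-4, and 2171 against 17415 and 1572 against 11961 FPKM in set 2. All 10 macrophage markers listed were at or above 1 FPKM in each library, with a summed level of 5360 to 22614 FPKM. Without Lyz2, the locus that carries Cre, the other 9 summed to 3400.5 to 4501 FPKM. With IL-4, 4 of the 10 were called lower in the fit with the replicate block described below (Cd14, Fcgr1, Mpeg1 and Aif1). In that fit 6.86% of all genes were called lower. The median log2 difference of the list was -0.41.

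The level of 12 fibroblast and stroma markers stood apart between the sets. In set 1 their summed level was 278 FPKM in the Ern1f/f control, 126 in Ern1f/f with IL-4, 729 in the Ern1f/fLyz2-Cre control and 345 in Ern1f/fLyz2-Cre with IL-4. In set 2 the sums were 12.3, 12.2, 5.40 and 3.70 FPKM in the same order. Of the 12 markers 10 passed the filter on low values. Of these, Col3a1, Col6a1, Dcn, Pdgfrb, Fbln2 and Cxcl12 were under 1 FPKM in every library of set 2, so they passed through set 1 alone and no count of calls between sets is given. Thy1, which did not pass, was at 0.183 to 0.235 FPKM in set 1 and 0.143 to 1.15 FPKM in set 2. Within set 1 all 10 were lower with IL-4 in both genotypes. In set 2 the Ern1f/f pair showed no common direction: Col1a1 went from 2.59 to 2.21 FPKM and Sparc from 3.19 to 3.44 FPKM. In Ern1f/fLyz2-Cre of set 2 Col1a1 and Sparc were lower with IL-4, while Dcn and Cxcl12 were higher. Most of the 10 were under 1 FPKM in set 2, where the log2(FPKM + 1) scale compresses differences. Their part in the differences of the 7 genes was not tested. In such bulk samples fewer cells of a type and less RNA per cell cannot be told apart.

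Levels per transcript length spanned more than 3 orders of size. Averaged over the 8 libraries, the level was 752 FPKM for Mfge8, 78.1 for Gas6, 43.6 for Axl, 27.1 for Mertk, 13.0 for Pros1, 0.435 for Timd4 and 0.225 for Tyro3. Mfge8 was the highest of the 7 in all 8 libraries, and Pros1 was the fifth in all 8. The neighbours Gas6 and Axl changed places: Axl was above Gas6 in both IL-4 libraries of set 1 and below it in the other 6. Axl and Mertk changed places once, in the Ern1f/fLyz2-Cre IL-4 library of set 2. Timd4 and Tyro3 exchanged the last places, with Timd4 above Tyro3 in 3 libraries, all with IL-4. The macrophages thus held transcripts of 1 secreted bridge at a high level, of 2 TAM receptors and both TAM ligands at a moderate level, and few of Tyro3 and Timd4.

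**Figure D1:**
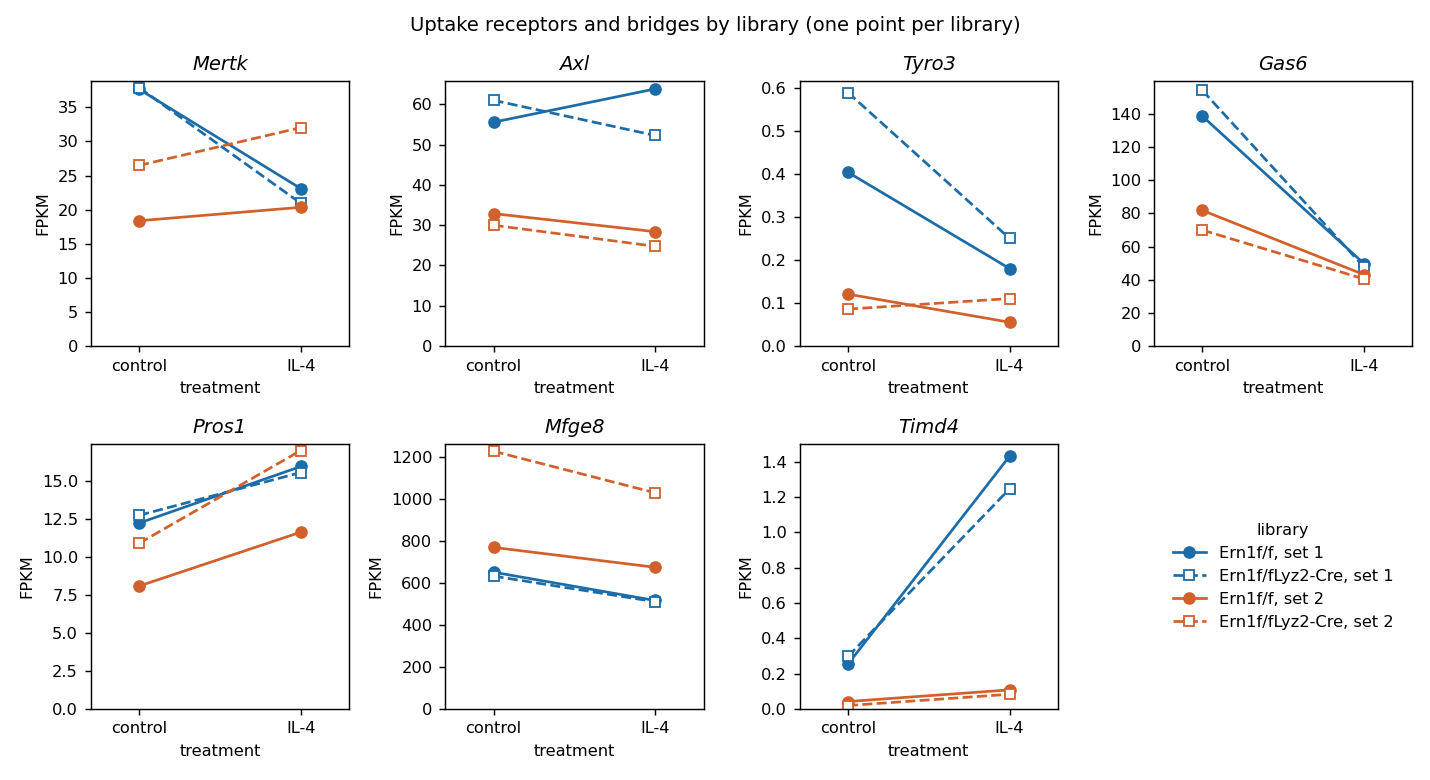
Level of each of the 7 genes in FPKM (y axis, from 0) in control and IL-4 libraries (x axis), with 1 point per library. Lines join the control and IL-4 library of a genotype and set, so that all 4 Gas6 lines slope down, all 4 Pros1 lines slope up, and the Mertk lines slope down in set 1 and up in set 2.

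The test across genes was limma on log2(FPKM + 1) over 10934 genes, those that reached 1 FPKM in 2 or more libraries, with Benjamini-Hochberg adjustment over all of them. A gene was called at an adjusted p under 0.05. It was fitted without the replicate number and, since the numbers pair the libraries, also with the number as a block. Of the 7 genes Tyro3 stayed under 1 FPKM in all 8 libraries and was not tested. Timd4 passed only through the 2 IL-4 libraries of set 1, so a difference there was built into its entry. For IL-4 averaged over the genotypes, no member was called without the block, against 0.841% of all genes. With the block 1 was called, Gas6, against 12.7% of all genes in either direction and 6.86% in the lower direction. That share of members is near the background.

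Among the receptors, Mertk, the main TAM receptor for apoptotic cell uptake by macrophages, moved in opposite directions with IL-4 in the sets. In set 1 it was at 37.6 FPKM in the Ern1f/f control and 23.1 with IL-4, and at 37.9 in the Ern1f/fLyz2-Cre control and 20.9 with IL-4. In set 2 it was at 18.4 FPKM in the Ern1f/f control and 20.3 with IL-4, and at 26.5 in the Ern1f/fLyz2-Cre control and 32.0 with IL-4. Both set 1 controls were thus the highest of the 8 libraries, and the IL-4 libraries of set 1 lay within the range of set 2. The difference on the log2(FPKM + 1) scale was -0.75 ± 0.11 (SE) within set 1 (limma, adjusted p = 0.000344) and 0.20 ± 0.11 within set 2 (limma, adjusted p = 0.233). Each of these fits held 4 libraries, 1 per group, and took the IL-4 difference as equal in both genotypes, so its error rests mainly on the spread over all genes. Within set 1, 28.3% of all genes were called for IL-4, and within set 2, 21.9%. Averaged over sets and genotypes the Mertk difference was -0.28 ± 0.27 (limma, adjusted p = 0.752), with a 95% interval of -0.94 to 0.39. The test of the difference between the sets gave 0.96 ± 0.29 (limma, adjusted p = 0.261). It was not called, and 0.137% of all genes were.

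The Mertk promoter is shown because its letters can be set against those of the TAM ligands below. It was read from RefSeq (GRCm38.p6) at chr2:128698665-128698964, plus strand. The window runs from 250 bases before to 50 after the start of the gene as placed there. GENCODE, used for gene positions below, places the start of Mertk and of Gas6 elsewhere. Capitals mark GGGCGG on either strand, the GC box found at many promoters.
Mertk: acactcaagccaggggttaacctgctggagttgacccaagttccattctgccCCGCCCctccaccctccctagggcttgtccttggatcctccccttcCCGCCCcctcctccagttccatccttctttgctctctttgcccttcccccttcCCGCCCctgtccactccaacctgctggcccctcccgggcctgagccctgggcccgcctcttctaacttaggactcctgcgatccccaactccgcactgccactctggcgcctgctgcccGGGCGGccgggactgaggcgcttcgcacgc
The window held 4 GC boxes and no match to TTCNNNGAA, the core bound by STAT proteins, or to its STAT6 form, in which 4 bases stand between TTC and GAA. STAT6 is the factor that IL-4 activates. Mertk lies at chr2:128698956-128802894 on the plus strand (GENCODE M21, GRCm38). Exons of Mertk are overlapped by the span of Gm14011 on the opposite strand, whose level is not analysed here. Whether exons of Gm14011 overlap them was not checked. Any reads that they share cannot be told apart without strand.

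Axl, the TAM receptor best known for its induction in inflamed macrophages, differed between the sets and little with IL-4. In set 1 it was at 55.6 FPKM in the Ern1f/f control, 63.8 with IL-4, 61.0 in the Ern1f/fLyz2-Cre control and 52.3 with IL-4. In set 2 the same groups held 32.9, 28.4, 30.0 and 24.8 FPKM. The sets did not overlap, since the lowest library of set 1 was above the highest of set 2. Axl was lower in set 2 by a log2 difference of -0.98 ± 0.09 (limma, adjusted p = 0.00092). Of all genes 33.4% were called between the sets, 23.3% in that direction. The IL-4 difference in Axl was -0.12 ± 0.41 without the block (limma, adjusted p = 0.945) and was positive in 1 of 4 pairs, the Ern1f/f pair of set 1. With the block its 95% interval ran from -0.34 to 0.09.

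Tyro3, the third TAM receptor, was near the limit of detection. Its level in set 1 was 0.404 FPKM in the Ern1f/f control, 0.180 with IL-4, 0.590 in the Ern1f/fLyz2-Cre control and 0.251 with IL-4. Set 2 held 0.121, 0.0555, 0.0861 and 0.111 FPKM in that order. These values stand for 26 to 89 implied fragments per library in set 1 and 7 to 17 in set 2, so the lowest library of set 1 was above the highest of set 2. With IL-4 the level was 0.446 times the control in Ern1f/f of set 1, with an exact 95% interval of 0.269 to 0.722 that covers counting error only. The ratio was 0.425 (0.288 to 0.618) in Ern1f/fLyz2-Cre of set 1. In set 2 the ratios were 0.459 (0.161 to 1.17) and 1.29 (0.508 to 3.41), so no direction was detectable there at this depth. Counting intervals compare libraries, not conditions.

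The receptors shifted against each other. The ratio of Mertk to Axl, in FPKM, went from 0.677 to 0.362 with IL-4 in Ern1f/f of set 1 and from 0.621 to 0.401 in Ern1f/fLyz2-Cre of set 1. The ratio in set 2 went from 0.559 to 0.717 and from 0.883 to 1.29. Mertk was thus the lower of the pair in 7 of 8 libraries. The summed level of Mertk, Axl and Tyro3 was 73.4 to 99.4 FPKM in set 1 and 48.8 to 56.9 FPKM in set 2, without overlap.

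Of the ligands, Gas6 was lower with IL-4 in all 4 pairs. In set 1 its level was 138.5 FPKM in the Ern1f/f control and 49.7 with IL-4, and 154.1 in the Ern1f/fLyz2-Cre control and 47.6 with IL-4. In set 2 it was 81.8 FPKM in the Ern1f/f control and 43.1 with IL-4, and 69.9 in the Ern1f/fLyz2-Cre control and 40.5 with IL-4. All 4 IL-4 libraries lay below all 4 controls, and within a narrower range. The level was 2.79-fold lower with IL-4 in Ern1f/f and 3.23-fold lower in Ern1f/fLyz2-Cre of set 1, and 1.90-fold and 1.73-fold lower in set 2. The averaged log2 difference was -1.20 ± 0.29 without the block, which did not pass the adjustment (limma, adjusted p = 0.162). With the block it was -1.20 ± 0.17, with a 95% interval of -1.60 to -0.81, and was called (limma, adjusted p = 0.00818). That call was lost without the Ern1f/fLyz2-Cre IL-4 library of set 1 (limma, adjusted p = 0.0504) and with no filter on low values (limma, adjusted p = 0.118).

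By genotype, the Gas6 difference with the block was -1.19 ± 0.24 in Ern1f/f (limma, adjusted p = 0.0634) and -1.22 ± 0.24 in Ern1f/fLyz2-Cre (limma, adjusted p = 0.0483). Only the second was called, and 2.12% and 3.32% of all genes were called in those comparisons. It was lost when any 1 of 5 libraries was left out, with the value from -1.59 to -0.86 and the adjusted p from 0.0407 to 0.306 over the 8. Without the block neither was called, against 0% and 0.0549% of all genes, and 673 genes had an unadjusted p under 0.05 by limma in Ern1f/f. The test of their difference gave -0.04 (limma, adjusted p = 0.9999), with a 95% interval of -0.84 to 0.76 in that blocked fit. Within each set Gas6 was called, at -1.57 ± 0.11 in set 1 (limma, adjusted p = 2.01e-06) and -0.84 ± 0.12 in set 2 (limma, adjusted p = 2.16e-05). The larger drop in set 1, where the controls were higher, stood at 0.72 ± 0.18 in the test of the difference between sets and was not called (limma, adjusted p = 0.184). The summed fibroblast and stroma markers, given above, were also lower with IL-4 in set 1 and summed to at most 12.3 FPKM in set 2. Their part in the Gas6 difference was not tested. Between the sets Gas6 was lower in set 2 by a log2 difference of -0.58 ± 0.17 (limma, adjusted p = 0.0387), and the controls of the sets did not overlap. That call was lost under each of 3 scalings (limma, adjusted p = 0.0578 to 0.0713), with no filter (0.190) and when any 1 of 6 libraries was left out.

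**Figure D2:**
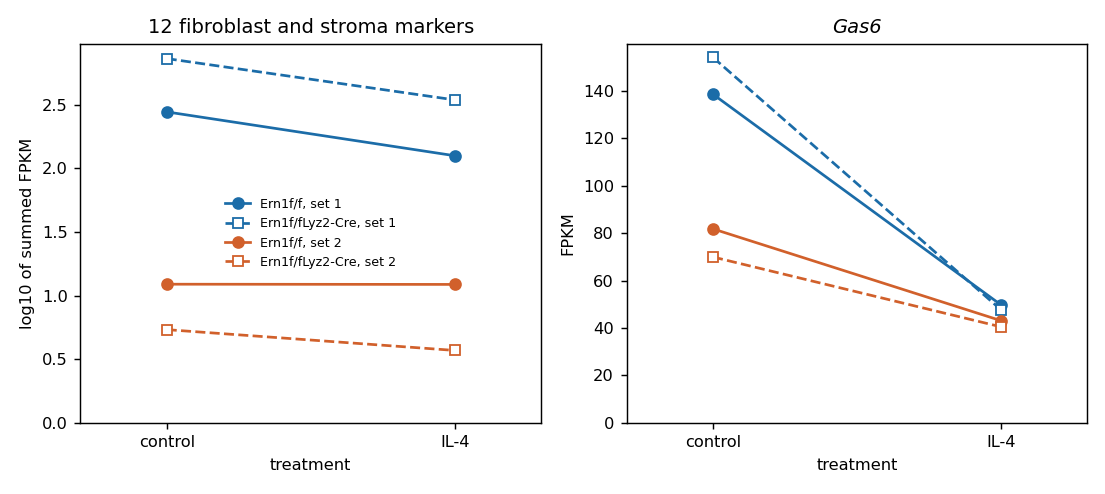
Left, log10 of the summed FPKM of 12 fibroblast and stroma markers; right, Gas6 in FPKM from 0, both for control and IL-4 libraries (x axis) with 1 point per library. The marker sum is 126 to 729 FPKM in set 1 and 3.70 to 12.3 in set 2. Gas6 is 138.5 and 154.1 FPKM in the controls and 49.7 and 47.6 with IL-4 in set 1, and 81.8 and 69.9 against 43.1 and 40.5 in set 2.

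Pros1, which encodes protein S, was higher with IL-4 in all 4 pairs. Its level in set 1 was 12.2 FPKM in the Ern1f/f control and 15.9 with IL-4, and 12.7 in the Ern1f/fLyz2-Cre control and 15.5 with IL-4. Its level in set 2 was 8.07 FPKM in the Ern1f/f control and 11.6 with IL-4, and 10.9 in the Ern1f/fLyz2-Cre control and 17.0 with IL-4. Control and IL-4 libraries overlapped across sets, because the Ern1f/f IL-4 library of set 2 was below both set 1 controls. The level was 30.5%, 22.1%, 43.9% and 56.0% higher with IL-4 in Ern1f/f and Ern1f/fLyz2-Cre of set 1 and then of set 2. The averaged log2 difference was 0.42 ± 0.17 (limma, adjusted p = 0.333), and with the block 0.42 ± 0.12 (limma, adjusted p = 0.0661), with a 95% interval of 0.14 to 0.71. It was not called in either fit. Pros1 did not pass the test between sets (-0.26 ± 0.12; limma, adjusted p = 0.131), nor did Mertk (-0.27 ± 0.24; limma, adjusted p = 0.407). Within sets it was 0.31 ± 0.11 in set 1 (limma, adjusted p = 0.0598) and 0.54 ± 0.11 in set 2 (limma, adjusted p = 0.0015), of which the second was called.

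The promoters of the TAM ligands are shown side by side because the ligands lay on opposite sides of their controls with IL-4. Both were read from RefSeq (GRCm38.p6), Gas6 at chr8:13494486-13494785 on the minus strand and Pros1 at chr16:62854057-62854356 on the plus strand. Capitals mark matches to the STAT6 form, to TTCNNNGAA and to GGGCGG on either strand.
Gas6: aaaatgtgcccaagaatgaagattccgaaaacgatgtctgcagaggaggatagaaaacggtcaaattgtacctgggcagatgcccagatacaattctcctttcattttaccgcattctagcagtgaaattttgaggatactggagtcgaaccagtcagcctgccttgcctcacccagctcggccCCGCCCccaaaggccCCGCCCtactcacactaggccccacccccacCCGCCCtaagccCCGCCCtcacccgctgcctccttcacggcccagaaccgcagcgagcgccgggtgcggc
Pros1: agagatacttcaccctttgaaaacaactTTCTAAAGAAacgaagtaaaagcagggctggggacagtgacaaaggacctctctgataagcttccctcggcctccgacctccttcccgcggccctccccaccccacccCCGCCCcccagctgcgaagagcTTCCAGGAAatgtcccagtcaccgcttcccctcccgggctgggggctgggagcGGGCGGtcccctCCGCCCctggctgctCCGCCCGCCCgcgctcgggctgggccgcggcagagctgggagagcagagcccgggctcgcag
In the Pros1 window 1 match to the STAT6 form (TTCTAAAGAA) began at position -222 from the start of the gene and 1 match to TTCNNNGAA (TTCCAGGAA) at position -92, and they did not overlap. The Gas6 window held neither. Of 27025 promoters of the same length, 6.99% held the STAT6 form and 8.47% held TTCNNNGAA. The GC box was present 4 times in Gas6 and 5 times in Pros1, of which 2 overlapped, and 35.9% of all promoters held at least 1. A match describes letters in this window and says nothing about binding, and its absence says nothing about the factor. In the annotation (GENCODE M21, GRCm38) Gas6 lies at chr8:13465374-13494490 on the minus strand. The span of Tmem255b on the opposite strand overlaps exons of Gas6, and whether exons of Tmem255b do was not checked. Whether the counting used strand is not given in the sources used here. Tmem255b was listed at 0 FPKM in 7 libraries and at 0.0287 FPKM in the other. Pros1 lies at chr16:62854307-62929346 on the plus strand with no gene over it. In the same annotation Axl lies at chr7:25757273-25788705 (minus strand), Tyro3 at chr2:119797733-119818104 (plus), Mfge8 at chr7:79133768-79149060 (minus) and Timd4 at chr11:46810800-46844332 (plus), and no other gene overlaps these.

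The balance of the TAM ligands moved the same way in the 4 pairs. The Gas6 level was 11.3 times that of Pros1 in the Ern1f/f control of set 1 and 3.12 times with IL-4, and it went from 12.1 to 3.07 times in Ern1f/fLyz2-Cre. In set 2 it went from 10.1 to 3.71 times in Ern1f/f and from 6.42 to 2.38 times in Ern1f/fLyz2-Cre. The 4 control ratios were all above the 4 IL-4 ratios. Gas6 remained the more abundant ligand transcript in each library.

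**Figure D3:**
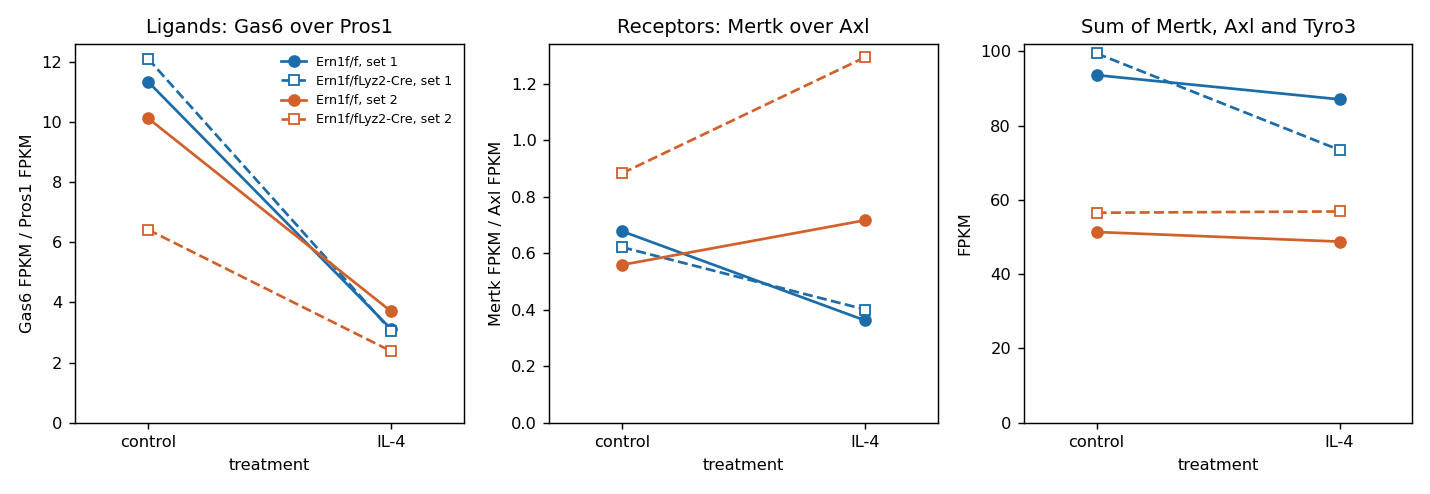
Ratio of Gas6 to Pros1 (left), ratio of Mertk to Axl (middle) and summed FPKM of Mertk, Axl and Tyro3 (right), each from 0 on the y axis, for control and IL-4 libraries with 1 point per library. The ligand ratio is 6.42 to 12.1 in controls and 2.38 to 3.71 with IL-4, and the receptor ratio moves down in set 1 and up in set 2.

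Mfge8, the bridge to αv integrins, was the most abundant of the 7 transcripts. In set 1 it was at 652 FPKM in the Ern1f/f control and 517 with IL-4, and at 633 in the Ern1f/fLyz2-Cre control and 511 with IL-4. Set 2 held 770 FPKM in the Ern1f/f control and 675 with IL-4, and 1229 in the Ern1f/fLyz2-Cre control and 1030 with IL-4. Every library of set 2 was above every library of set 1, and both Ern1f/fLyz2-Cre libraries of set 2 stood above the other 6. The difference with IL-4 was -20.7% and -19.3% in Ern1f/f and Ern1f/fLyz2-Cre of set 1 and -12.3% and -16.1% in set 2. The averaged log2 difference of -0.27 ± 0.31 was not called (limma, adjusted p = 0.789), nor was it with the block at -0.27 ± 0.15 (limma, adjusted p = 0.281). Mfge8 was higher in set 2 by 0.65 ± 0.15 (limma, adjusted p = 0.0198), with 10.1% of all genes called in that direction. The call was lost when any 1 of the 4 Ern1f/fLyz2-Cre libraries was left out (limma, adjusted p = 0.067 to 0.0735) and with no filter (0.136).

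Timd4 was measured at low levels. Its level in set 1 was 0.253 FPKM in the Ern1f/f control and 1.43 with IL-4, and 0.297 in the Ern1f/fLyz2-Cre control and 1.25 with IL-4. In set 2 it was 0.0412 and 0.107 FPKM in Ern1f/f, and 0.0185 and 0.0823 in Ern1f/fLyz2-Cre. The set 1 values stand for 18, 106, 23 and 110 implied fragments and those of set 2 for 3, 7, 1 and 5. The IL-4 library was above its control in all 4 pairs. The ratio of IL-4 to control was 5.65 (exact 95% interval 3.41 to 9.90) in Ern1f/f and 4.20 (2.66 to 6.89) in Ern1f/fLyz2-Cre of set 1. For set 2 it was 2.61 (0.595 to 15.6) and 4.45 (0.498 to 211), and the depth there does not tell a difference from none. Averaged, the difference was 0.48 on the log2(FPKM + 1) scale, which compresses such low values. No test of it is given, since Timd4 passed the filter only through 2 IL-4 libraries. All 4 libraries of set 1 were above all 4 of set 2, but no test between sets is given, since Timd4 passed the filter through set 1 alone. Of 10 markers of resident tissue macrophages, Timd4 among them, Clec4f and Cd209b were at 0 in all 8 libraries. The 10 summed to 72.6 to 141 FPKM in set 1 and 350 to 633 FPKM in set 2, where Timd4 was lower. Most of that sum in set 2 was Marco, a scavenger receptor, at 194 to 412 FPKM.

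**Figure D4:**
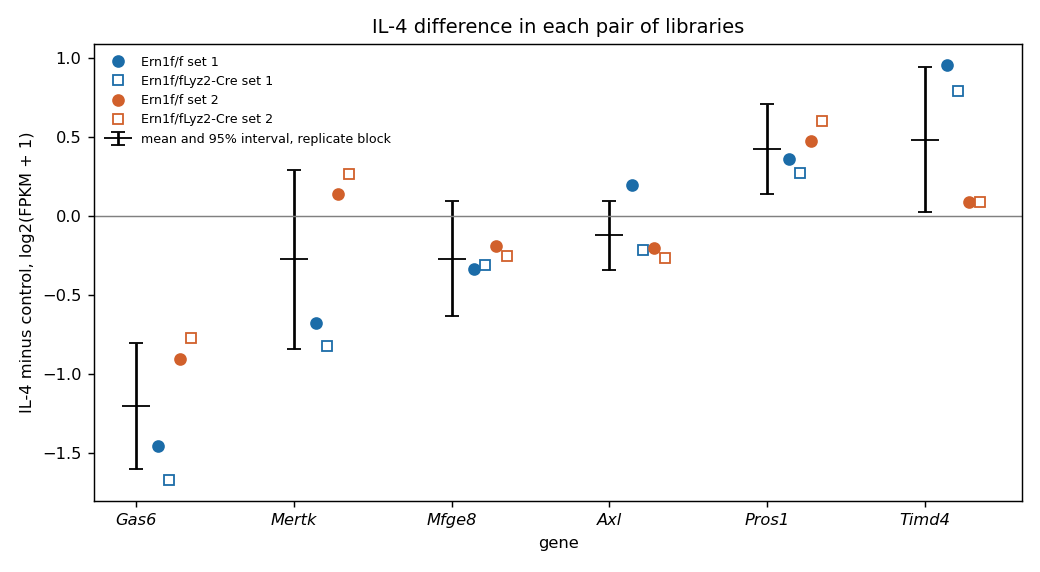
IL-4 minus control on the log2(FPKM + 1) scale (y axis) for the 6 genes tested (x axis). Points are the 4 pairs of libraries and black bars the mean with its 95% interval from the fit with the replicate block: for Gas6 all 4 points lie below 0, for Pros1 and Timd4 all 4 lie above it, and the Mertk points lie on both sides. Timd4 passed the filter only through IL-4 libraries of set 1, so its interval is no test of a rise.

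The genotype comparison was between the groups titled Ern1f/fLyz2-Cre and Ern1f/f. Loss of Ern1 in these cells is not shown by the values, as said above. For genotype no member was called without IL-4, with it or averaged, and none for the interaction of IL-4 and genotype, with or without the block. Of all genes 0% were called for genotype averaged over treatments in either fit, and 0.00915% (1 gene) for genotype with IL-4 in the fit with the block. By limma, 52 of the 10934 genes had an unadjusted p under 0.05 for genotype averaged over treatments without the block and 223 with it. The averaged log2 differences, Ern1f/fLyz2-Cre minus Ern1f/f, were 0.25 ± 0.27 for Mertk, -0.12 ± 0.41 for Axl, -0.05 ± 0.29 for Gas6, 0.23 ± 0.17 for Pros1 and 0.31 ± 0.31 for Mfge8. With the block the 95% interval was -0.45 to 0.34 for Gas6 and -0.06 to 0.67 for Mfge8.

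Within set 2 alone 3 members were higher in Ern1f/fLyz2-Cre, against 2.01% of all genes called in that direction and 4.68% in either. Mertk was higher by 0.57 ± 0.11 (limma, adjusted p = 0.00447), Pros1 by 0.45 ± 0.11 (limma, adjusted p = 0.0219) and Mfge8 by 0.64 ± 0.17 (limma, adjusted p = 0.0286). Within set 1 the same differences were -0.06, 0.01 and -0.03, none was called, and 3.69% of all genes were. The sets also differed in how far Lyz2 parted the titled genotypes, as given above, and whether this bears on the members was not tested. Tested between sets, the genotype difference differed by 0.67 ± 0.18 for Mfge8 (limma, adjusted p = 0.492). It differed by 0.63 ± 0.40 for Mertk (limma, adjusted p = 0.9995) and by 0.44 ± 0.19 for Pros1 (limma, adjusted p = 0.9995). None of these was called, and 0.0915% of all genes were.

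The rest of the uptake pathway was taken from 11 lists, and the counts below are for IL-4 averaged over genotypes with the block, where the median of all genes was -0.03. They are descriptions, read against 5.88% of all genes called higher and 6.86% lower. Of 21 other uptake receptors 14 were tested, 4 rose, 1 fell and the median was -0.16. Of 5 integrin subunits in the list, 2 rose: Itgax (CD11c) by 2.17 ± 0.15 (limma, adjusted p = 0.00112) and Itgb3, the β3 chain of the Mfge8 receptor αvβ3, by 1.72 ± 0.18 (limma, adjusted p = 0.0035). The other chains of the Mfge8 receptors were not called, with -0.07 ± 0.16 for Itgav (αv) and -0.10 ± 0.08 for Itgb5 (β5), nor was Itgam (CD11b) with -0.19 ± 0.15. Itgb3 went from 1.89 to 4.91 FPKM over the controls to 10.8 to 18.1 FPKM with IL-4, without overlap. Itgax and Itgb3 were also called without the block. Cd36, a scavenger receptor, rose by 0.86 and Cd300lb, a lipid-binding receptor, by 0.91. Cd14, a receptor for lipopolysaccharide and apoptotic cells, fell by 1.67 on the log2 scale.

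Of 18 other bridges and opsonins 12 were tested, 4 rose, 1 fell and the median was 0.16. Anxa1, a phosphatidylserine-binding annexin, rose by 1.07 ± 0.11 (limma, adjusted p = 0.00332), from 383 to 484 FPKM in controls to 851 to 966 FPKM with IL-4, and was also called without the block. Complement C3 rose by 1.07, the galectin Lgals3 by 0.94 and calreticulin (Calr), an engulfment signal and endoplasmic reticulum chaperone, by 0.47. Apoe, the lipid carrier apolipoprotein E, fell by 0.75 on the log2 scale. It was at 2558 to 6486 FPKM in set 2 and 14199 to 22859 FPKM in set 1.

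Signalling downstream of uptake was divided. Of 21 engulfment signalling genes 20 were tested and 6 were called. Elmo2 and Dock2, parts of exchange factors for Rac, rose by 0.52 and 0.55. Elmo1 (-0.47), the GTPases Rac2 (-0.46) and Rhog (-0.31) and the exchange factor Vav1 (-0.53) fell, in log2 differences. Of 13 genes of TAM signalling and feedback 11 were tested. Socs1, the cytokine feedback inhibitor, rose by 2.36 ± 0.28 (limma, adjusted p = 0.00519), while its relative Socs3 (-1.11) and the phospholipase Plcg2 (-0.45) fell. Twist1 and Twist2, transcription factors downstream of Axl, were the 2 not tested. Of the 6 genes of the vitamin K cycle, which carboxylates Gas6 and protein S, 1 was called: Aifm2 rose by 0.50 ± 0.08 (limma, adjusted p = 0.0143). Of 5 genes that shed Mertk and Axl or regulate shedding, Rhbdf2, a partner of the protease ADAM17, rose by 0.43 ± 0.10 (limma, adjusted p = 0.0341), and Adam10 and Adam17 were not called.

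Among 10 nuclear receptors and cofactors known to control uptake genes, Pparg rose by 1.17 ± 0.11 (limma, adjusted p = 0.00279) and its coactivator Ppargc1b by 1.11. Ppard (-0.59) fell. Nr4a1 was called lower (-0.99) but reached 1 FPKM only in control libraries, so a fall was built into its entry. Nr1h3 (LXRα), a known regulator of Mertk, was not called. Pparg was at 29.7 to 30.4 FPKM in the set 1 controls and 58.7 to 63.9 with IL-4, and at 11.6 to 12.8 and 26.9 to 39.1 FPKM in set 2. Each IL-4 library was above its control, but the sets differed in level, as they did for Axl.

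Of 9 receptors for find-me signals, which draw macrophages to dying cells, all were tested, 6 fell, 1 rose and the median was -0.61. The log2 difference was -2.25 for Fpr1 and -1.96 for Fpr2, formyl peptide receptors, and -1.81 for Cx3cr1, the fractalkine receptor. It was -1.25 for S1pr1 and -0.61 for S1pr2, sphingosine phosphate receptors, and -0.61 for P2ry2, a nucleotide receptor. Cx3cr1 was at 1.26 to 13.8 FPKM in controls and 0.296 to 1.23 FPKM with IL-4. Without its controls Cx3cr1 would not have passed the filter, so a fall was built into its entry. P2ry6, a nucleotide receptor known to promote phagocytosis in microglia, rose by 0.62. Of 8 do-not-eat-me receptors 2 rose and 2 fell. Pecam1 rose by 0.75 and Siglec5 by 1.03, while Siglece (-1.25) and Pilra (-1.45) fell, and Pilra was also called without the block. Sirpa, the receptor for CD47, was not called.

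Handling of the engulfed cell was the other stage covered. Of 21 phagosome maturation genes all were tested, 4 fell and none rose. The log2 difference was -0.38 for Rubcn (listed as 1700021K19Rik), -0.51 for Map1lc3a, -0.64 for the oxidase subunit Cybb and -0.79 for the amino acid transporter Slc7a7. The median of that list was -0.04, close to that of all genes. Of 8 genes of cholesterol export and handling, Mylip (-1.04) and Apoc1 (-0.76) fell, and Abca1 and Abcg1 were not called. No gene of the 11 lists was called for genotype averaged over treatments in either fit.

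**Figure D5:**
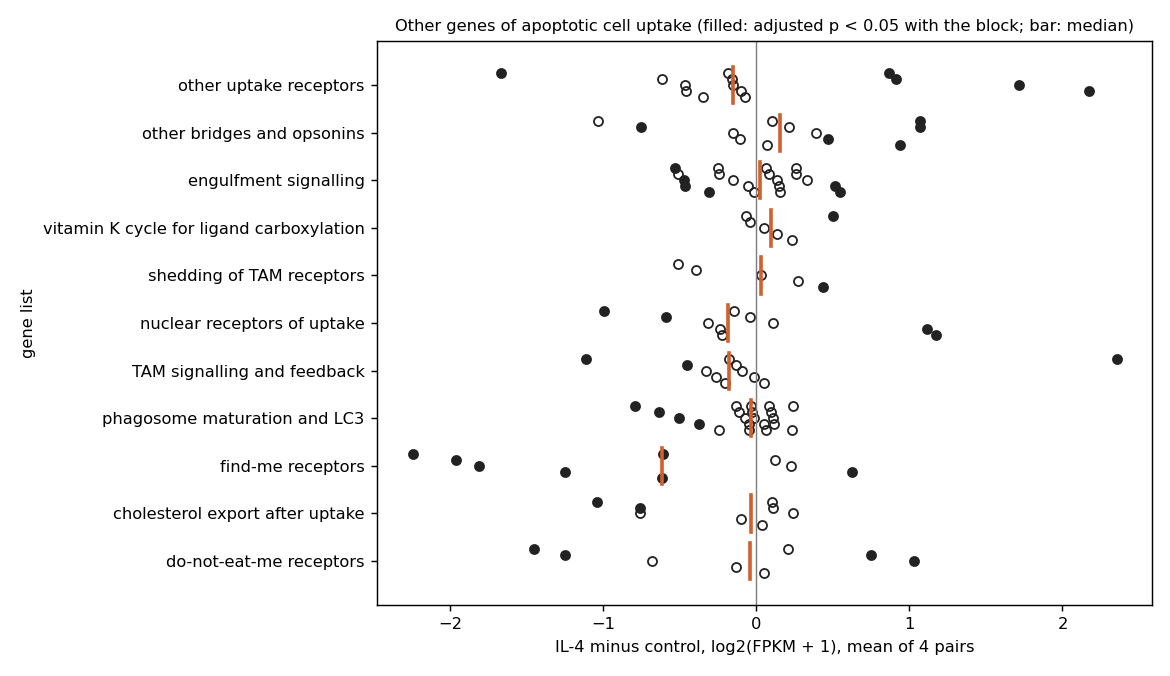
IL-4 minus control on the log2(FPKM + 1) scale (x axis, mean of 4 pairs) for the tested genes of 11 lists (y axis). Filled points have an adjusted p under 0.05 in the fit with the replicate block, open points do not, and orange bars are list medians, from -0.61 for find-me receptors to 0.16 for other bridges and opsonins.

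The genes whose log values followed each member most closely over the 8 libraries were picked by Pearson's r among those with a mean of at least 5 FPKM. They are a description with no test, over libraries that fall into 2 sets and share depth and set. Scap followed Axl at r = 0.998, Wbp1 followed Gas6 at 0.995 and Snx18 at 0.993. Pde1b followed Mfge8 at 0.983, Adprhl2 followed Timd4 at 0.987, Gm7120 followed Pros1 at 0.968 and Fam102b followed Mertk at 0.965. Fam102b was lower with IL-4 in set 1, at 8.71 and 6.18 FPKM in Ern1f/f, and stood at 5.14 and 5.38 FPKM in set 2.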

How the data were processed

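Gene-level FPKM values and their confidence bounds, 1 deposited table per library, were made by the authors. Per the submitters' processing notes TopHat 1.4.1, Cufflinks 1.3.0 and the mm10 build were used; their settings and the gene models are not given in the sources used here. Each table held 23838 rows; rows sharing a symbol were summed to 23354 symbols. Values were tested as log2(FPKM + 1), so that a fold change understates that of low genes. Genes reaching 1 FPKM in 2 or more libraries entered a two-sided test of 4 group means (limma 3.58.1, empirical Bayes with a trend, R 4.3.3), checked on simulated data. The FPKM tables give no read counts. Fragments were implied from the confidence bounds, and 73.0% to 75.0% of genes under 60 fragments fell within 0.02 of a whole number; intervals on them (Clopper-Pearson, 95%) cover counting error only and served for Timd4 and Tyro3.

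Groups came from the titles. Pairing by replicate number comes from the data: replicate differences correlated between groups (r = 0.69 to 0.83), so the block is shown where it changes a call. Fits within sets and between them were added after the data were seen. Members, gene lists and tests were chosen with earlier results of these data known. Genes named are the members, list genes called in a comparison or with the smallest p of their list, of which those called for IL-4 are given here, and for each member the genes most like it. Each called list gene had its IL-4 difference in the fit across all genes. Motifs were searched on both strands; AGGTCA and TGANTCA (in 16.0% and 7.93% of promoters) were also searched, and AGGTCA was found once, in the Timd4 promoter. Sequences are from RefSeq. Alternatives were the pseudocount, filter, scaling, variance model, the choice of row per symbol, row status, the replicate block, grouping by the genotype field, fitting fewer groups and leaving out each library. Figures used matplotlib 3.10.9 in Python 3.11.15.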

Additional observations from a re-analysis of the deposited data

Results flagged for a closer look

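The IL-4 difference of Mertk had opposite signs in the sets: it was negative in both set 1 pairs and positive in both set 2 pairs. The difference between the sets was 0.956 on the log2(FPKM + 1) scale (limma with the product of IL-4 and replicate number, adjusted p = 0.261), which did not pass the adjustment over all genes.

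The genotype difference of Mfge8 was negative in both treatments of set 1 and positive in both treatments of set 2. It differed between the sets by 0.67 on that scale (limma with the product of genotype and replicate number, adjusted p = 0.492), which also did not pass. Both tests were added after the values were seen. With 2 libraries per group no library was tested for standing apart within its group.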

How the results depend on the processing

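Counts of called genes moved with several choices. For IL-4 in Ern1f/f the count was 0, and 232 with the replicate block, 31 with no filter, 11 with upper quartile scaling, 11 with median centring and 0 to 1 leaving out 1 library. For IL-4 in Ern1f/fLyz2-Cre it was 6, and 363 with the replicate block, 0 with pseudocount 0.1, with no variance trend or with only the groups compared, 1 with no filter, 13 with upper quartile scaling, 18 with quantile normalization, 19 with median centring and 0 to 1 leaving out 1 library. For IL-4 averaged it was 92, and 1393 with the block, 2919 under the genotype field and 3 to 49 leaving out 1 library. With no filter genotype gave 10 calls in control cells, 17 with IL-4 and 24 averaged, and the interaction 22, against 0. Genotype with IL-4 gave 1 with the block. Between sets it was 3657, 1275 with no filter and 2344 to 2612 leaving out 1 library; 30.2% of these calls were higher in set 2, 39.7% with upper quartile scaling, 48.1% with quantile normalization and 49.5% with median centring. The cause was not tested.

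No scaling moved the median of all genes by more than 0.0997. Leaving out 1 library turned the sign of some uncalled differences. The IL-4 difference of Axl ran from -0.41 to 0.16. The genotype difference ran from -0.40 to 0.17 for Axl, -0.34 to 0.23 for Gas6 and -0.32 to 0.25 for Timd4. The interaction ran from -0.51 to 0.49 for Mertk, -0.81 to 0.33 for Axl, -0.60 to 0.53 for Gas6, -0.25 to 0.29 for Pros1, -0.52 to 0.49 for Mfge8 and -0.65 to 0.49 for Timd4. The Timd4 genotype difference was 0.014 with quantile normalization and the Pros1 interaction -0.031 with upper quartile scaling. Ordered by level within a library, 2 members stood at another place than in the mean order in 6 libraries, 4 in 1 library and 0 in 1. With the block Gas6 stayed negative leaving out any library, from -1.39 to -1.02. The block changed no other member's call for IL-4 averaged. Under the genotype field, which follows the replicate number, adjusted p from limma was 0.0428 for Pros1. Over all alternatives 4 member results for IL-4 averaged became called. Gas6 with the block and Pros1 under the field were among these. Under 10 fragments, as for Timd4 in set 2, depth is the limit.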

Other observations

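Markers of other cell types also moved with IL-4, and their part in the members' values was not tested. Counts below are for IL-4 averaged over genotypes with the block. They are read against 5.88% of all genes called higher and 6.86% lower. Of 7 osteoclast genes 5 were tested and 3 were called higher. Ocstamp, which encodes a membrane protein of cell fusion, was at 0.131 to 0.309 FPKM in the controls and 11.1 to 25.5 FPKM with IL-4. It passed the filter only through the IL-4 libraries, so its rise was built into its entry. Dcstamp, its relative, rose by 2.19 and Atp6v0d2, a proton pump subunit, by 0.90. Of 8 dendritic cell genes 1 was tested, the transcription factor Batf3, which rose by 2.30 ± 0.55 (limma, adjusted p = 0.0419). Of 8 endothelial genes 4 were tested and 3 rose: Vwf by 0.78, Pecam1 by 0.75 and Eng by 0.50. The other tested gene, Kdr, was lower with IL-4 in all 4 pairs. Cdh5, Tek, Emcn and Cldn5 stayed under 1 FPKM in every library. Of 10 macrophage genes 4 fell, with log2 differences of -1.67 for Cd14, -0.95 for Fcgr1, -0.68 for Mpeg1 and -0.63 for Aif1. Among the remaining lists 1 monocyte gene was called higher (Ccr2, 0.98). It reached 1 FPKM only in IL-4 libraries, so a rise was built into its entry. Called lower were 1 neutrophil gene (S100a8, -1.02), 1 B cell gene (Cd79b, -0.86) and 1 T cell gene (Cd4). So were 2 resident macrophage genes (Cd5l, -1.25, and Marco, -1.17). No fibroblast and stroma gene was called in this fit over both sets. Xcr1, Clec9a and Flt3 did not pass the filter on low values. Summed over their marker lists, the levels ran from 39.9 to 75.6 FPKM for neutrophils, 7.58 to 36.3 for monocytes, 23.3 to 56.1 for endothelium, 0.791 to 16.8 for B cells and 1.05 to 9.51 for T and NK cells.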
